A study of Mus musculus with 16 samples.

Results

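The p53 pathway and its senescence markers were read in old mouse liver through 10 genes: Cdkn1a, Cdkn2a, Trp53, Mdm2, Ccng1, Bax, Gdf15, Sesn1, Gadd45a and Gadd45b. All probes whose platform gene symbol was one of these names were taken, which gave 16 of the 25697 probes on the arrays and 7 of the 10 genes. Trp53, Bax and Gdf15 had no probe under their symbol in the annotation used here and were not analysed here. Of the 16 probes, 12 from 6 genes entered the fits, which covered 11143 probes of 7816 named genes in all.

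The livers came from 13 male C57BL/6 mice bought at 104 weeks of age and kept for a month on the purified diet AIN-93G. Afterwards 5 mice ate the same diet with 1% metformin in alternate weeks (EOW), 4 ate it in 2 weeks in a row of each month (2WM), and 4 stayed on the drug-free standard diet (SD), each for 17 weeks. All mice were non-fasted at collection, and the paper describes both metformin groups as on the drug at 17 weeks. The labels name no genetic change in any group. RNA was hybridised to Illumina BeadArrays, with 2 arrays for mouse 1 of each group and 1 array for every other mouse, 16 in all. The labels name separate mice, so the spread between them is biological as well as technical. Their replicate numbers are not said to mark a litter, cage or day.

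The transcription factor p53 is held low in unstressed cells by the ubiquitin ligase Mdm2, which is itself a p53 target and so closes a feedback loop. When DNA damage or other stress stabilises p53, it switches on genes with several roles. Some stop the cell cycle (Cdkn1a, which encodes p21) or limit growth signalling (Sesn1), and others handle damage (Gadd45a) or start cell death (Bax). Senescent cells are recognised by lasting p21 and by the products of Cdkn2a, p16INK4a and p19ARF, and old liver is a tissue in which such cells are known to gather.

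The windows upstream of the Cdkn1a and Sesn1 start sites are shown because Cdkn1a, the best known p53 target, has a paired p53 core there, and because Sesn1 had the smallest p-value of the members. Each window is the 250 bases before a RefSeq start site, from build GRCm38.p6, and all are on the plus strand. Capitals mark the letters CATGNNNNNNCATG, a pair of p53 core tetramers 6 bases apart that reads the same on both strands. The Cdkn1a window shown is chr17:29090729-29090978, before its upstream start. The window before its downstream start, chr17:29093519-29093768, held no such pair and is not shown. The Sesn1 windows are chr10:41810324-41810573 before its upstream start and chr10:41887189-41887438 before its downstream start.
Cdkn1a: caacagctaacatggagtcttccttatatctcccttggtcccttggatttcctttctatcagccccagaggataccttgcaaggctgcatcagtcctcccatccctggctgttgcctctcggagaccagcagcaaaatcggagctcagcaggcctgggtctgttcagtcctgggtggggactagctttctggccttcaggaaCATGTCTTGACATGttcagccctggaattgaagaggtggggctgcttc
Sesn1, upstream start: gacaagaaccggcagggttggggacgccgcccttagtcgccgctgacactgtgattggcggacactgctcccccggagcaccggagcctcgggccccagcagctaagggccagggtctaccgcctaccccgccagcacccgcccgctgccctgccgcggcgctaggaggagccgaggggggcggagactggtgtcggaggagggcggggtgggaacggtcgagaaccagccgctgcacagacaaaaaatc
Sesn1, downstream start: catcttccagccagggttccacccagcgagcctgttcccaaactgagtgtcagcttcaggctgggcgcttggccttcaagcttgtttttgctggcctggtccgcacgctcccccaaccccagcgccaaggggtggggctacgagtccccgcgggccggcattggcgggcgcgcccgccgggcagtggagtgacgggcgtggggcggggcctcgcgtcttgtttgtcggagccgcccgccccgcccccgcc

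In the Cdkn1a window shown the paired motif spanned chr17:29090931-29090944, bases 48 to 35 before the upstream start site. All 10 genes had RefSeq windows, 14 in number, and the Cdkn1a window above was the 1 that held the motif, which occurred in 161 of 32851 windows of that length (0.49%). The shorter p53 half-site, the 10-base consensus that occurs singly or in pairs in p53 elements, was found in 7 of the 14 windows and in 7.13% of all windows. It also reads the same on both strands, and 1 of the 2 half-sites of Cdkn1a, both in the window shown, overlaps the paired motif. Of 26 windows of other p53 targets, a list taken up below, 5 held the half-site (19.2%) and 0 the paired motif. For the members with 1 half-site, the sequences below have the core tetramer in capitals. The genes were listed as p53 targets and senescence markers, with Trp53 itself among them, so these matches describe a known set. In addition, p53 acts through introns and distal elements that these windows leave out.
Mdm2: gaaCTTGcct
Ccng1: gggCAAGcct
Sesn1, downstream start: aagCTTGttt
Gadd45a: gggCTAGccc
Bax: aggCAAGctt
Trp53: ggaCTTGccc

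Signals are given as log2 normalised signal, that is, each array's log2 intensities brought to a common mean and spread; a difference of 1 is a doubling of the scaled signal. On this scale the dimmest probe detected on an array lay between 7.26 and 7.42, so a level near 7.3 is a level near the background. A probe counted as detected on an array at a detection p-value under 0.05. Signals of different probes cannot be set against each other as amounts of RNA.

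Most of the members with a probe were expressed in the old livers. Of the 16 probes, 11 were detected on all 16 arrays, among them at least 1 for each of Cdkn1a, Mdm2, Ccng1, Sesn1 and Gadd45a. Gadd45b was near background. Its probe was detected on 6 of 6 EOW arrays, 1 of 5 2WM arrays and 2 of 5 SD arrays, and so it entered the fits through EOW alone. The third Cdkn1a probe (ILMN_2846776) was detected on 7 arrays and the third Mdm2 probe (ILMN_1229882) on none, and neither was tested.

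Cdkn2a, the classical marker of senescent cells, was not above background on any array. Both of its probes were detected on 0 of 16 arrays, with detection p-values of 0.0777 to 0.789 for ILMN_1221177 and 0.0840 to 0.937 for ILMN_1226950. The brighter probe, ILMN_1221177, read 7.12, 7.16, 7.12, 7.19 and 7.09 in EOW mice 1 to 5, then 7.12, 7.25, 7.27 and 7.14 in 2WM mice 1 to 4, and 7.01, 7.15, 7.11 and 7.14 in SD mice 1 to 4. ILMN_1226950 ranged from 7.02 to 7.26 in EOW mice, from 7.20 to 7.24 in 2WM mice and from 6.98 to 7.10 in SD mice. Since neither probe was detected, these values have no order and no fold change is given, and a level below the reach of these probes cannot be told apart from none.

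**Figure D1:**
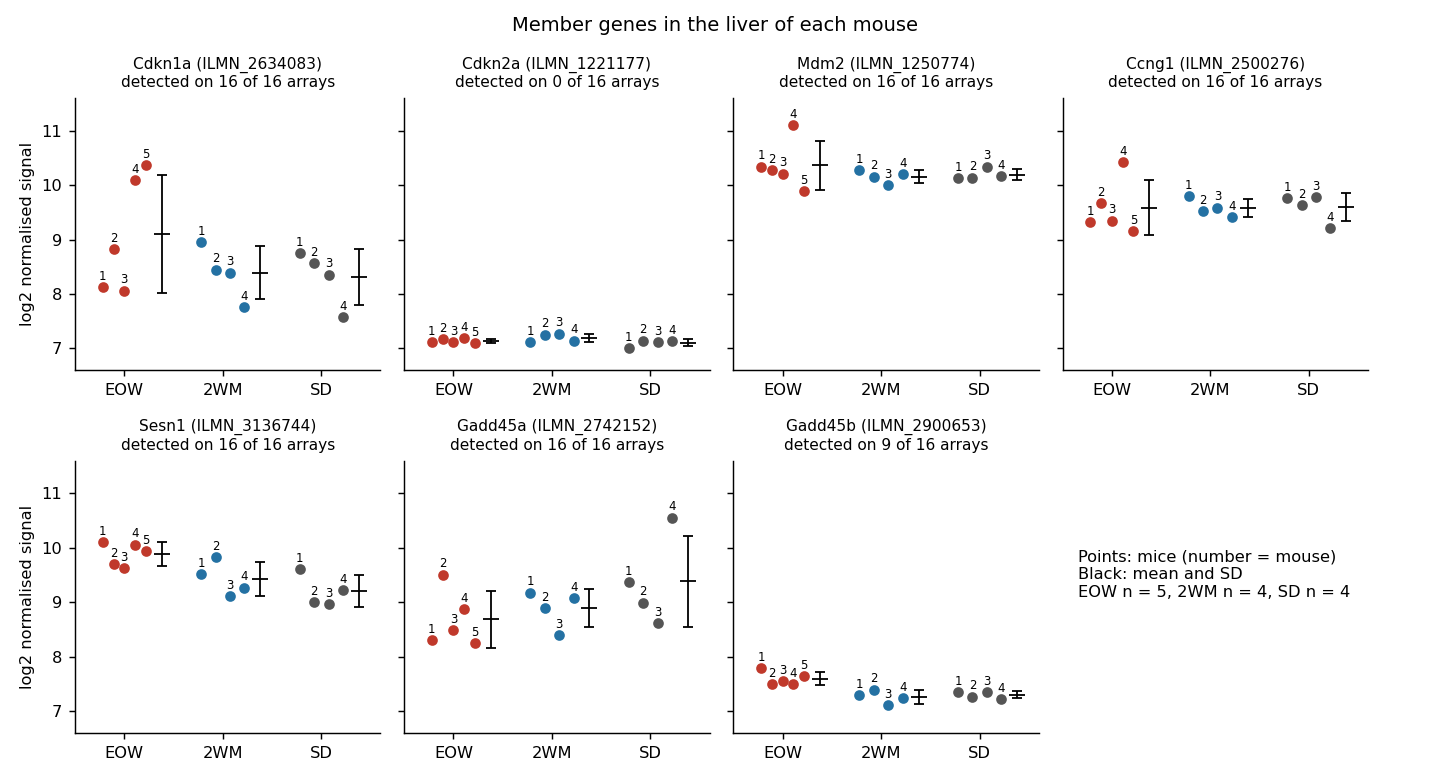
Log2 normalised signal (vertical axis) of the probe read for each of the 7 genes, by group, with 1 numbered point per mouse and the mean and SD in black. Sesn1 and Gadd45b show EOW mice above all SD mice, where Gadd45b is near background and was fitted through EOW alone. Cdkn1a has EOW mice 4 and 5 apart at 10.09 and 10.37, and Cdkn2a stays at the background in all 13 mice.

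No member passed the test of any comparison. With limma and Benjamini-Hochberg adjustment over the 11143 probes, 0 of 12 member probes had an adjusted p under 0.05 in EOW against SD, in 2WM against SD or in EOW against 2WM, and the same was true of all probes (0%). Under an adjusted p of 0.30 there were 2 of 12 in EOW against SD (Sesn1 and Gadd45b) beside 8.74% of all probes, 0 of 12 in 2WM against SD beside 0.0449%, and 1 of 12 in EOW against 2WM (Gadd45b) beside 2.42%. At an unadjusted p under 0.05 the members are counted over the 11 probes detected on every array, which leaves out Gadd45b. In EOW against SD these were 2 of 11, both of Sesn1 and both higher, beside 14.6% of the 9295 probes detected on every array, with 6.02% higher. In 2WM against SD there were 0 of 11 beside 6.41%, and in EOW against 2WM 1 of 11, again of Sesn1 and higher, beside 11.4%, with 5.65% higher. With Gadd45b included the counts were 3 of 12 beside 13.8%, 0 of 12 beside 5.93% and 2 of 12 beside 10.7%. These counts come from at most 3 probes of Sesn1 and Gadd45b, and nothing is read from them about the members together. Gadd45b entered the fits through EOW alone, so its place in the counts with EOW is a description and no support for a difference. Comparisons of EOW and of 2WM with SD share the same 4 SD mice.

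Sesn1 encodes sestrin 1, a leucine-binding stress protein that restrains the growth kinase complex mTORC1. Its brighter probe, ILMN_3136744, read 10.10, 9.70, 9.63, 10.06 and 9.94 in EOW mice 1 to 5. The 2WM mice had 9.52, 9.82, 9.11 and 9.27, and the SD mice 9.60, 9.004, 8.97 and 9.23. No EOW mouse was as low as any SD mouse, although EOW mouse 3 and SD mouse 1 differed by little, and the 2WM mice overlapped both groups. EOW averaged 9.89 ± 0.213 (SD, n = 5) and the SD diet 9.20 ± 0.292 (SD, n = 4), a log2 fold change of 0.68 (95% interval 0.32 to 1.05) or 1.61-fold. The exact two-sided permutation p was 0.00794, the smallest that 5 mice against 4 allow, whereas limma's adjusted p over all probes was 0.170 (standard error 0.170), rank 99 of 11143. Groups without overlap occurred in 3.92% of the probes detected on every array, and in 1.71% with EOW higher.

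The second Sesn1 probe, ILMN_3059476, was much dimmer and gave a smaller difference in the same direction. It read 7.85, 7.82, 7.54, 7.63 and 7.65 in EOW mice and 7.46, 7.49, 7.44 and 7.52 in SD mice, again without overlap. The log2 fold change was 0.22 (limma, adjusted p = 0.354; exact permutation p = 0.0159). In 2WM mice this probe read 7.92, 7.78, 7.50 and 7.53, so that mouse 1 was above every EOW mouse and mice 3 and 4 were below every EOW mouse. The 2 probes correlated at r = 0.620 across the 13 mice, as a description.

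The place of 2WM was not the same by both Sesn1 probes. By ILMN_3136744 Sesn1 was higher in EOW than in 2WM by 0.46 (limma, adjusted p = 0.373; exact permutation p = 0.0476), which without EOW mouse 4, a liver that stands apart from the others, was 0.41 (exact permutation p = 0.114), and 2WM exceeded SD by 0.23 (adjusted p = 0.918; exact permutation p = 0.286). By ILMN_3059476 EOW and 2WM differed by 0.01 (adjusted p = 0.966, 95% interval −0.21 to 0.23), and 2WM exceeded SD by 0.21 (adjusted p = 0.852; exact permutation p = 0.0571). The means kept the order EOW, 2WM, SD by both probes. In that order neither 2WM and SD nor, by ILMN_3059476, EOW and 2WM differed beyond their spread.

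Markers of other cell types also varied between the groups. The stellate cell and fibroblast markers had a probe for 7 of 7, and 4 were detected on every array. Their summed scaled signal was 16217 to 27899 in EOW, 15654 to 18795 in 2WM and 11011 to 16642 in SD mice. Of the 4, 2 (Dcn and Des) had an unadjusted limma p under 0.05 in EOW against SD, beside 14.6% of all probes detected on every array. The highest sum was that of EOW mouse 4, and the other EOW mice reached 16217 to 20525. Without that mouse Dcn alone of the 4 kept an unadjusted limma p under 0.05. Hepatocyte markers had a probe for 9 of 10, and 7 were detected on every array. They summed to 124736 to 223567 in EOW, 139543 to 177534 in 2WM and 117575 to 160077 in SD mice. EOW mouse 4 was the lowest of its group, and the other EOW mice had 149341 or more. All 7 had positive log2 fold changes in EOW against SD, and Ttr and Apoc3 had an unadjusted limma p under 0.05. Without EOW mouse 4 such a p was found for 4 of the 7. With all mice it was found for 1 of 6 sinusoidal endothelial (Lyve1), 0 of 7 macrophage and 0 of 3 T and NK cell markers detected on every array. In these bulk samples fewer cells of a type and less RNA per cell cannot be told apart, and the part of cell makeup in the Sesn1 difference was not tested. Without EOW mouse 4 the Sesn1 difference was 0.64 (limma, adjusted p = 0.187; exact permutation p = 0.0286, the smallest that 4 against 4 allow), still with no overlap (2.34% of all tested probes had none and were higher).

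EOW mouse 4 stands apart from the other livers and had extreme values for several members. Its signals correlated with those of the other 12 mice at 0.841 to 0.888, against 0.950 to 0.991 among those 12. Markers of T and NK cells (13 of 14 with a probe, 3 detected on every array, and Cd4, Cd8a and Gzmb on none) summed to 38339 in this mouse, and to between 2254 and 3321 in the other 12. The part of these cells in the member values of this mouse was not tested. Values without it are given beside many of the results that it moves.

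Cdkn1a, which encodes the cyclin-dependent kinase inhibitor p21, separated individual mice rather than groups. By ILMN_2634083 the EOW mice had 8.13, 8.83, 8.06, 10.09 and 10.37, the 2WM mice 8.96, 8.45, 8.39 and 7.76, and the SD mice 8.75, 8.57, 8.36 and 7.58. EOW mice 4 and 5 were the highest of all 13 livers, while EOW mice 1 and 3 lay inside the range of both other groups. The EOW mean was 9.10 ± 1.08 (SD, n = 5), the 2WM mean 8.39 ± 0.490 and the SD mean 8.31 ± 0.517 (SD, n = 4 each). The log2 fold change of EOW against SD was 0.78 (95% interval −0.23 to 1.80; limma, adjusted p = 0.468; exact permutation p = 0.262). Against 2WM it was 0.71 (limma, adjusted p = 0.608, and exact permutation p = 0.286), and 0.46 without EOW mouse 4. For 2WM against SD it was 0.08 (95% interval −0.996 to 1.15, with a limma adjusted p of 0.998).

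The high Cdkn1a of EOW mice 4 and 5 was read by all 3 probes of the gene. ILMN_2846775 gave 8.93 and 9.28 in these mice and 7.48 to 8.40 in the other 11, and ILMN_2846776 gave 7.76 and 8.09 in these mice and 7.04 to 7.50 in the others, with r = 0.921 to 0.966 between the probes. The T and NK cell markers were high in mouse 4 but not in mouse 5, where they summed to 2727. Without mouse 4 the difference to SD was 0.54, without mouse 5 it was 0.47, and with array weights 0.19. Repeat arrays of SD mouse 1 read 9.08 and 8.43 for ILMN_2634083, a difference of 0.65 within 1 liver, while those of EOW mouse 1 and 2WM mouse 1 differed by 0.08 and 0.05.

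**Figure D2:**
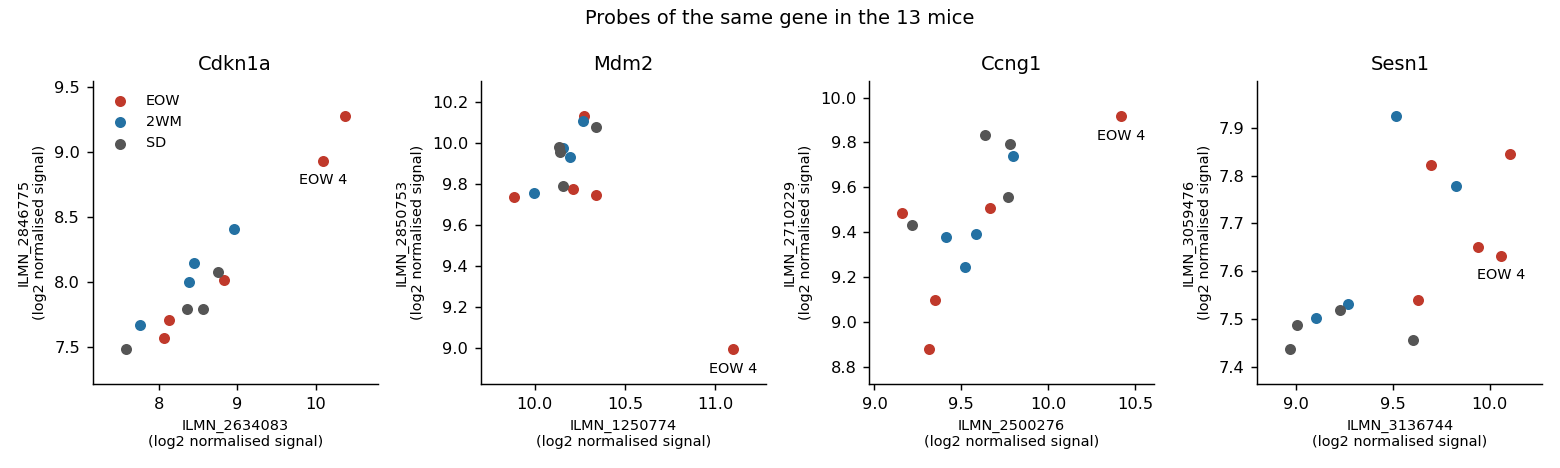
Log2 normalised signal of 2 probes of the same gene on the horizontal and vertical axis, 1 point per mouse coloured by group, for Cdkn1a, Mdm2, Ccng1 and Sesn1. The Cdkn1a probes vary together, with EOW mice 4 and 5 at the top, whereas EOW mouse 4 has the highest value of 1 Mdm2 probe (11.10) and the lowest of the other (8.99).

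Genes whose level followed Cdkn1a most closely over the 13 mice were Trim29 (Spearman rho 0.879), Hmgb2 (0.852) and Creb3l2 (0.846), of 7810 named genes outside the list. Those that ran most opposite were Acads (−0.912), which encodes the short-chain acyl-CoA dehydrogenase of mitochondrial fatty acid oxidation, Mapk9 (−0.852) and Ift20 (−0.802). Hmgb2 encodes a chromatin protein, Creb3l2 a membrane-bound transcription factor and Mapk9 the stress kinase JNK2. Hmgb2 is also on the list of senescence markers taken up below. Without EOW mouse 4 the same coefficients were 0.853, 0.811 and 0.825, and −0.888, −0.867 and −0.762. Trim29 lay near background, between 7.23 and 7.51. They are the extremes of many comparisons in the same livers and serve as a description only.

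Mdm2, the ligase that degrades p53, passed no test by either tested probe, and these probes disagreed most in 1 liver. ILMN_1250774 read 10.34, 10.27, 10.21, 11.10 and 9.88 in EOW mice, 10.27, 10.16, 9.997 and 10.20 in 2WM mice and 10.13, 10.14, 10.34 and 10.16 in SD mice. EOW mouse 4 was the highest and EOW mouse 5 the lowest of the 13. By this probe EOW exceeded SD by 0.17 (limma, adjusted p = 0.688; exact permutation p = 0.611), and without EOW mouse 4 it was lower by a log2 fold change of −0.02. The other probe, ILMN_2850753, ran the opposite way in that mouse, with 9.75, 10.13, 9.77, 8.99 and 9.74 in EOW and 9.79 to 10.08 in SD mice. By this second probe 4 of the 5 EOW mice lay below every SD mouse, and EOW mouse 2 lay above them. Its log2 fold change was −0.28 (limma, adjusted p = 0.503, and exact permutation p = 0.254), and −0.10 without EOW mouse 4. The probes correlated at r = −0.674 over the 13 mice and at 0.511 without EOW mouse 4, and the direction in EOW is therefore unsettled. In 2WM against SD the values were −0.04 and −0.01 (adjusted p = 0.998 each), with intervals of −0.46 to 0.38 and −0.41 to 0.40.

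Ccng1, which encodes cyclin G1 and is among the strongest p53 targets in mouse liver, showed near-equal group means by its brightest probe. ILMN_2500276 gave 9.32, 9.67, 9.35, 10.42 and 9.16 in EOW mice, 9.79, 9.52, 9.59 and 9.41 in 2WM mice, and 9.77, 9.63, 9.78 and 9.22 in SD mice. EOW mouse 4 was again the highest, and the remaining EOW mice lay below the SD median of 9.70. The log2 fold change was −0.02 for EOW against SD (95% interval −0.50 to 0.46; limma, adjusted p = 0.975) and −0.02 for 2WM against SD (95% interval −0.53 to 0.48; adjusted p = 0.998). The other probes gave −0.28 (ILMN_2710229) and −0.20 (ILMN_2702233) in EOW against SD. Without EOW mouse 4 the 3 values became −0.23, −0.41 and −0.31, with adjusted p of 0.501, 0.296 and 0.343 and exact permutation p of 0.257, 0.114 and 0.0571.

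Gadd45a, a stress protein that binds p21 and PCNA, had its lowest mean in EOW and its highest in SD livers. By ILMN_2742152 the EOW mice read 8.31, 9.51, 8.48, 8.88 and 8.24, the 2WM mice 9.18, 8.90, 8.39 and 9.08 and the SD mice 9.37, 8.99, 8.61 and 10.55. The groups overlapped throughout, and SD mouse 4 was the highest of all 13 livers. EOW against SD gave −0.70 (95% interval −1.47 to 0.08; limma, adjusted p = 0.404; exact permutation p = 0.183) and 2WM against SD −0.50 (adjusted p = 0.913). Without SD mouse 4, these differences shrank to −0.31 and −0.11. The second probe, ILMN_2947568, followed the first (r = 0.911), with −0.43 and −0.25. SD mouse 4 was thus highest in Gadd45a and lowest in Cdkn1a.

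Gadd45b, the inducible family member known from regenerating liver, read 7.79, 7.50, 7.56, 7.50 and 7.64 in EOW mice, 7.30, 7.40, 7.10 and 7.23 in 2WM mice, and 7.35, 7.27, 7.35 and 7.22 in SD mice. Every EOW mouse was above every mouse of the other groups, and on 7 of the 10 arrays of those groups it was not above background. The log2 fold change was 0.30 against SD (standard error 0.0873; limma, adjusted p = 0.205) and 0.34 against 2WM (standard error 0.0873; adjusted p = 0.255), each with an exact permutation p of 0.00794, and groups without overlap and higher in EOW made up 1.75% and 1.99% of all tested probes. The probe entered the fits only because it was detected on every EOW array, and such a filter favours probes that are higher in EOW. The p-values and shares given in this paragraph for EOW therefore describe a dim probe and do not test a difference. With background subtraction (neqc) the differences became 0.997 and 1.11, over 1.5 times larger, with adjusted p of 0.134 and 0.163. In 2WM against SD Gadd45b gave −0.04 (adjusted p = 0.996).

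**Figure D3:**
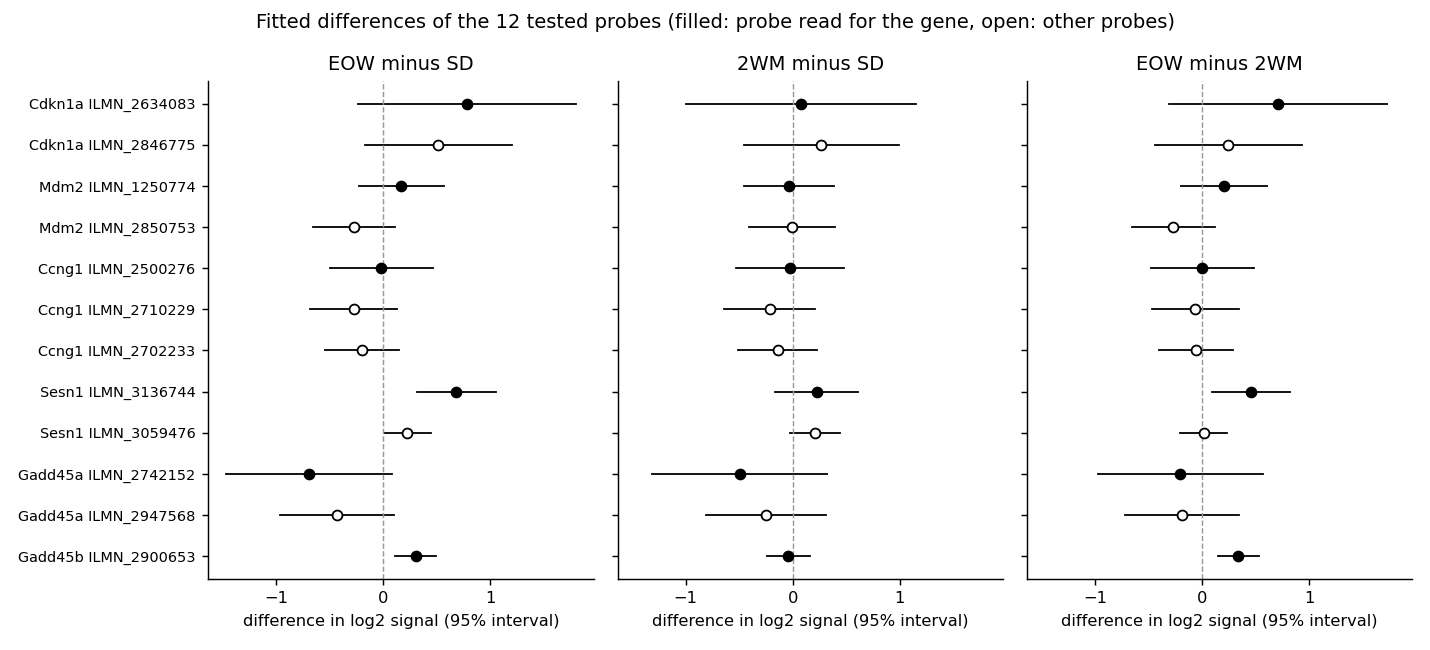
Fitted difference in log2 normalised signal (horizontal axis) with its 95% interval for the 12 tested probes in the 3 comparisons; filled points are the probes read for each gene and open points the others. In EOW against SD the intervals of both Sesn1 probes lie above 0, and in 2WM against SD all 12 include 0. The Gadd45b interval also lies above 0 in EOW against SD, but its probe entered the fits through EOW alone. It is therefore a description and tests no difference.

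The members varied together only in part across the 13 mice. Sesn1 and Gadd45b had the highest rank correlation of the 15 pairs of genes (Spearman rho 0.802, and 0.783 without EOW mouse 4), Cdkn1a and Ccng1 had 0.456 (0.392 without that mouse), and Cdkn1a and Mdm2 −0.088 (−0.301). Gadd45a and Gadd45b had the lowest, −0.505 (−0.462). These values share the arrays and the group difference and carry no test.

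Other p53 targets were examined as a list of 28 genes, of which 27 had a probe and 15 were detected on every array. None passed the test over all probes with all 13 mice in the fit. In EOW against SD 11 of the 15 had positive and 4 negative log2 fold changes, with a median of 0.10 beside −0.02 over all probes detected on every array, and without EOW mouse 4 the median was 0.00. Bbc3, which encodes the cell death protein PUMA, was the 1 gene of the 15 with an unadjusted p under 0.05 in each comparison. In EOW against SD, 2WM against SD and EOW against 2WM, 14.6%, 6.41% and 11.4% of all probes detected on every array did too. Bbc3 ranged from 9.25 to 9.72 in EOW, from 9.64 to 9.92 in 2WM and from 8.77 to 9.34 in SD mice. The 2WM mice thus lay above all SD mice, where 5.69% of the probes detected on every array had no overlap in either direction. Bbc3 had a log2 fold change of 0.81 in 2WM against SD (standard error 0.136; limma, adjusted p = 0.188; exact permutation p = 0.0286), 0.39 in EOW against SD (adjusted p = 0.238; exact permutation p = 0.0397) and −0.41 in EOW against 2WM (adjusted p = 0.294; exact permutation p = 0.0238). With EOW mouse 4 left out of the shared fit, a step added after seeing the data, Bbc3 passed in 2WM against SD. Its difference there stayed at 0.81, with a limma adjusted p of 0.0399. In EOW against SD and in EOW against 2WM it then gave 0.31 and −0.50 (limma, adjusted p = 0.290 and 0.201). The share of all probes that passed in that fit without EOW mouse 4 is not given here. The next genes by p in EOW against SD were Ercc5 (0.16), Ddb2 (0.25) and Fas (−0.14), with adjusted p of 0.434, 0.505 and 0.508. Without EOW mouse 4 Ddb2 gave 0.10.

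A pair of further p53 targets, named after their values were seen, depended on EOW mouse 4. Trp53inp1, which encodes the p53-induced nuclear protein TP53INP1, was detected on 15 of 16 arrays and read 6.39 in that mouse, against 9.76 to 10.35 in SD mice. Its log2 fold change in EOW against SD was −0.29 (limma, adjusted p = 0.873), and without EOW mouse 4 it was 0.54 (adjusted p = 0.192). In 2WM against SD it gave 0.54 (limma, adjusted p = 0.971, and exact permutation p = 0.0571). With EOW mouse 4 left out of the shared fit, the limma adjusted p of that 2WM difference was 0.348. Zmat3, which encodes a p53-induced zinc finger protein, read 9.69 in EOW mouse 4, against 7.61 to 8.33 in SD mice. It gave 0.06 in EOW against SD (adjusted p = 0.944), and −0.32 without that mouse (adjusted p = 0.337).

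Among p53 regulators and DNA damage kinases, 15 of 16 had a probe and 6 were detected on every array. Cop1, a ubiquitin ligase that also targets p53, had an unadjusted p under 0.05 in EOW against SD, with a log2 fold change of −0.44 (limma, adjusted p = 0.282; exact permutation p = 0.0635), and ranged from 7.81 to 8.73 in EOW and from 8.61 to 9.08 in SD mice. Its lowest value was that of EOW mouse 4, without which the log2 fold change was −0.30 (adjusted p = 0.317). Usp7, the protease that removes ubiquitin from p53 and Mdm2, gave −0.12 in EOW and −0.23 in 2WM against SD (adjusted p = 0.623 and 0.844). The kinase Atm gave −0.10 in 2WM against SD (adjusted p = 0.979). The median over the 6 genes was 0.07 in EOW against SD, with 4 positive and 2 negative, and without EOW mouse 4 it turned to −0.04, with 1 positive and 5 negative. In 2WM against SD it was −0.04.

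Relatives of the members numbered 16, with 10 detected on every array. Cdkn1c, which encodes the inhibitor p57, ranged from 8.09 to 9.05 in EOW, from 7.66 to 7.91 in 2WM and from 7.66 to 8.31 in SD mice. Its log2 fold change was 0.52 in EOW against SD (limma, adjusted p = 0.272; exact permutation p = 0.0635) and 0.69 in EOW against 2WM, where the groups did not overlap (adjusted p = 0.255; exact permutation p = 0.0238), beside 4% of the probes detected on every array. Without EOW mouse 4, the lowest EOW mouse for Cdkn1c, these differences were 0.61 and 0.78 (limma, adjusted p = 0.210 and 0.201). Ccng2 exceeded SD by 0.45 in 2WM (limma, adjusted p = 0.83). Mcl1, a survival protein of the Bcl-2 family, exceeded 2WM by 0.34 in EOW (limma, adjusted p = 0.384), or by 0.28 without EOW mouse 4. Gadd45g, the third member of the Gadd45 family, ranged from 10.63 to 13.79 in EOW, from 11.20 to 12.56 in 2WM and from 9.69 to 11.56 in SD mice, with log2 fold changes of 0.998 and 1.10 against SD (adjusted p = 0.476 and 0.876).

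Secretory and other senescence markers numbered 22, with 21 named and 9 detected on every array. Igfbp7, a secreted growth factor binding protein that is also abundant in vessels and stellate cells, was higher than SD by 0.36 in EOW and by 0.35 in 2WM (limma, adjusted p = 0.317 and 0.831; exact permutation p = 0.103 and 0.143). Without EOW mouse 4 the EOW value of Igfbp7 was 0.25 (adjusted p = 0.397). Mmp12, a macrophage elastase detected on 15 of 16 arrays, gave 0.54 in EOW against SD (adjusted p = 0.199; exact permutation p = 0.0317), and Icam1 0.55 (adjusted p = 0.414), or 0.36 without EOW mouse 4. Lmnb1, whose loss marks senescence, gave −0.12 in EOW and −0.14 in 2WM against SD (adjusted p = 0.744 and 0.968), and it is named here after its values were seen. Without EOW mouse 4, the highest EOW mouse for Lmnb1 at 8.80, the EOW value was −0.28 (limma, unadjusted p under 0.05, adjusted p = 0.306). Hmgb2, also named after its values were seen, gave 0.20 in EOW (limma, adjusted p = 0.703) and 0.04 in 2WM against SD. Without EOW mouse 4 its EOW value was 0.08. Medians over the 9 genes were 0.20 in EOW (0.23 without EOW mouse 4) and 0.04 in 2WM against SD. The list holds Lmnb1, whose loss marks senescence, beside markers that rise with it, so its medians give no direction of senescence.

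Cell cycle genes that p21 and RB hold down were mostly out of reach, since 22 of 25 had a probe and 3 were detected on every array. Rb1 itself gave 0.30 in EOW against SD (limma, adjusted p = 0.361) and 0.21 without EOW mouse 4 (adjusted p = 0.470), and Pcna gave 0.36 in 2WM against SD (adjusted p = 0.759). Genes of the integrated stress response, which shares targets such as Gdf15 and Gadd45a with p53, numbered 10, with 6 detected on every array. Chac1, a glutathione-degrading enzyme, gave 0.83 in EOW against SD (adjusted p = 0.442), and 1.16 without EOW mouse 4 (limma, unadjusted p under 0.05, adjusted p = 0.247). Ddit4, an inhibitor of mTORC1, gave 1.32 (adjusted p = 0.450), with EOW mice between 7.84 and 12.34, and 0.94 without EOW mouse 4. The median over the 6 genes was 0.46 in EOW (0.50 without EOW mouse 4) and 0.12 in 2WM against SD.

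**Figure D4:**
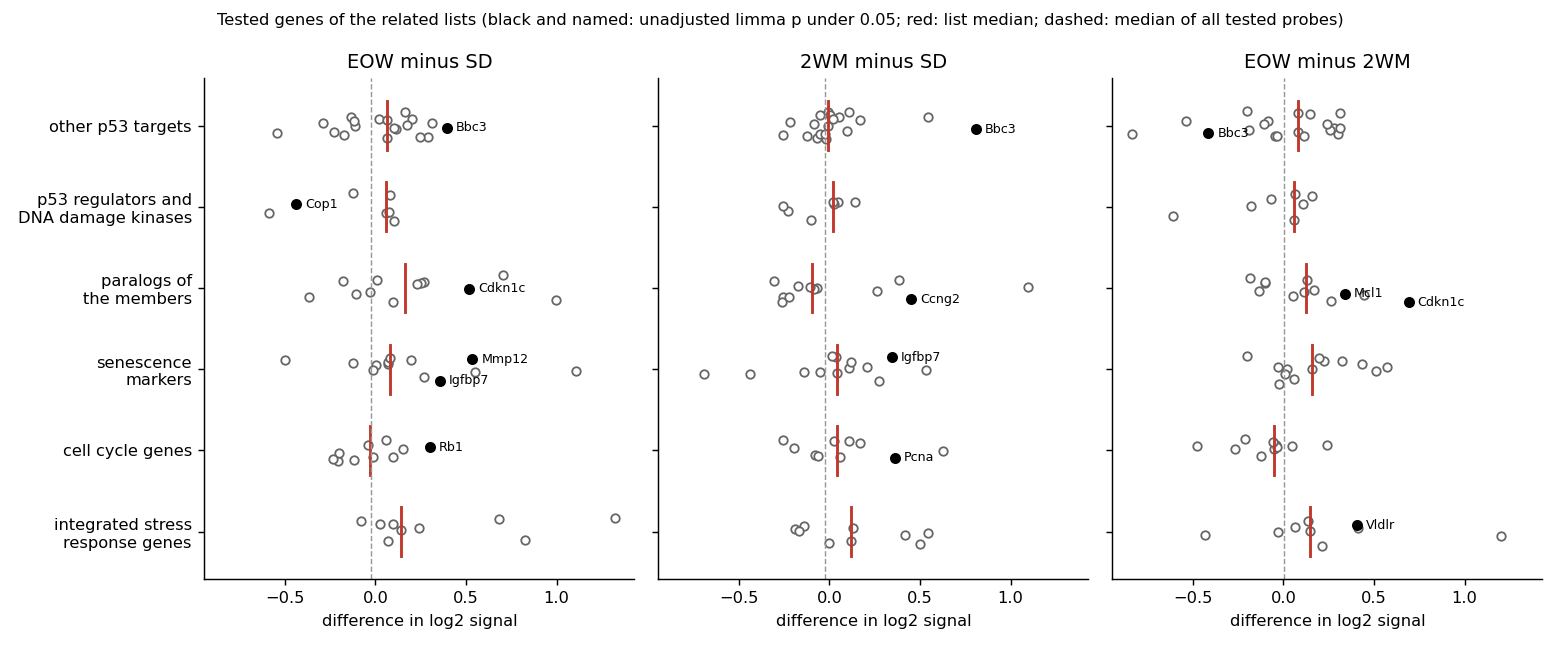
Difference in log2 normalised signal (horizontal axis) of each tested gene in 6 related lists (vertical axis) for the 3 comparisons. Black named points have an unadjusted limma p under 0.05, red bars are list medians over the tested genes, and the dashed line is the median of all tested probes; Bbc3 is named in all 3 comparisons, at 0.39, 0.81 and −0.41.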

How the data were processed

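The authors deposited probe intensities without normalization and a detection p-value for each probe and array, and the submitters' processing notes name GenomeStudio 2011.1. The deposited matrix holds a Z score per probe, found by setting each column against its own array's log2 intensities (r = 1, differences up to 1e-04); column medians were −0.511 to −0.471. No deposited value column was left unassigned (0 columns). Median intensity was 127.2 to 184.9 and 11457 to 12953 probes were detected per array, and the number of arrays limits the precision. Platform annotation gave 1 symbol to 23978 probes and none to 1719.

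After the study's methods, log2 signals were converted to Z scores and rescaled with the arrays' mean SD (1.46), and repeat arrays of a mouse were averaged. Probes were fitted if some group had a detection p-value under 0.05 on all of its arrays, with limma 3.58.1 in R 4.3.3 (3 groups, 10 residual degrees of freedom, Benjamini-Hochberg adjustment), and exact permutation tests of the absolute difference of means, two-sided and unadjusted (18 for the genes read), were added. Steps were tested on simulated data. Each member was read by its brightest tested probe; in each related list up to 4 genes with the smallest p were eligible for naming, and for Cdkn1a the 3 most and least alike genes. Members and lists were chosen with earlier results of these data known. The study's figure legend gives 4 mice per group, and all 5 EOW mice were used.

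Alternatives tried were quantile normalization, neqc with an offset of 16, the deposited Z scores, centring on the median, other filters, a fit of only the groups compared, replicate number as a block, single arrays, array weights with statmod 1.5.0, an intensity trend, genes or dimmer probes, looser thresholds, the study's own criteria (including a z-ratio above 1.5) and leaving out each mouse. The lists without EOW mouse 4 were added after seeing the data.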

Additional observations from a re-analysis of the deposited data

Results flagged for a closer look

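Within groups of 4 or 5 mice, 36 sets of values of the 12 tested member probes were searched for a single value far from the rest, and chance alone marks about 1 set in 20. In Mdm2 (ILMN_1250774) SD mouse 3 lay apart, at 10.34 against 10.13 to 10.16 in the other 3 SD mice, a gap of 0.884 of the group's range. The second Mdm2 probe was also highest in that mouse among SD livers, at 10.08.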

How the results depend on the processing

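Under an adjusted p of 0.05 the count of member probes was 0 in each comparison and stayed at 0 under all other normalizations, filters and models tried and when any 1 mouse was left out (0 to 0). It moved only with the threshold. In EOW against SD there were 2 probes under an adjusted p of 0.30, 3 of 2 genes under an unadjusted p of 0.05 and 1 by the study's criteria (Sesn1, with 3.16% of all probes). In EOW against 2WM these counts were 1, 2 and 1 (Sesn1, with 2.76%). Of 558 fold changes under the alternatives, 527 kept their direction and 31 turned.

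Sesn1 in EOW against SD kept its direction throughout, with adjusted p of 0.118 to 0.466. No such reading is given for Gadd45b, which entered the fits through EOW. The cause of the turned values was not tested. For Mdm2, at 0.17 in EOW against SD and 0.21 in EOW against 2WM, the dimmer probe gave −0.28 and −0.27. Ccng1 gave 0.0044 with neqc and 0.011 with quantile normalization in EOW against SD, 0.015 and 0.012 with these in 2WM against SD, and −0.010 with neqc, −5.0e-04 with quantile normalization, −0.0072 with second arrays, −0.13 with array weights and −0.056 by its dimmest probe in EOW against 2WM. Cdkn1a gave −0.042 with array weights in 2WM against SD. Leaving out 1 mouse moved EOW against SD between −0.015 and 0.29 for Mdm2 and between −0.23 and 0.088 for Ccng1. It moved 2WM against SD between −0.17 and 0.29 for Cdkn1a, −0.075 and 0.015 for Mdm2, −0.15 and 0.039 for Ccng1 and −0.085 and 0.012 for Gadd45b, and EOW against 2WM between −0.21 and 0.11 for Ccng1. Centring on the median shifted the median of all probes to −0.09, −0.12 and 0.03 in EOW against SD, 2WM against SD and EOW against 2WM.

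With the replicate block 0 member probes passed in each comparison, Sesn1 gave 0.67 in EOW against SD (limma, adjusted p = 0.247) and Ccng1 turned to 0.088. EOW mouse 5 has no partner and drops out of that contrast. The numbers do not appear to pair the mice: same-numbered mice correlated at −0.381 to 0.328 over 12 pairs, and 3 pairs exceeded 0.1. The block changed no call. Precision is limited by 4 or 5 mice a group. Signals near the background, as for Gadd45b and the second Sesn1 probe, can understate differences, and whether they did so here was not tested.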
